A study of Caenorhabditis elegans with 2 samples.

Results

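The body size genes described here are 9 components of the DBL-1 pathway of Caenorhabditis elegans: dbl-1, sma-2, sma-3, sma-4, sma-6, sma-9, sma-10, lon-1 and lon-2. They were chosen by name from all 19973 nuclear protein-coding genes of the WBcel235 annotation, and each matched 1 annotated gene. Binding of DAF-16, the FOXO transcription factor at the end of insulin-like signalling, was measured by chromatin immunoprecipitation and sequencing (ChIP-seq) in whole L4 larvae of mixed sex. The animals were of strain XE1464, carried unc-119(ed3) on chromosome III and expressed DAF-16 with GFP and FLAG at its C-terminus from an insertion. There was 1 group of 2 biological replicates and no treated, mutant or untagged group among the samples, so the values describe where DAF-16 was found and make no contrast. Whole animals mix all tissues, and the cells that gave a peak are not known. A peak counted for a gene when its summit lay from 5 kb before to 5 kb past the annotated gene. A gene with such a peak is called bound here, even where the start of another gene lay nearer to it.

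DBL-1 is a BMP-like ligand, made largely by neurons, whose signal sets the length of the worm mainly through the hypodermis. It is received by the type I receptor SMA-6 and the type II receptor DAF-4, both serine/threonine kinases, and passed to the nucleus by the Smad proteins SMA-2, SMA-3 and SMA-4. SMA-10, a transmembrane protein with leucine-rich repeats and immunoglobulin domains, aids the receptors, and LON-2, a glypican, restrains the ligand. SMA-9, a large zinc finger protein related to Schnurri, acts with the Smads, and LON-1, a cysteine-rich secretory protein, acts below them. Loss of the sma genes gives small worms and loss of the lon genes long ones.

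DAF-16 peaks lay near 7 of the 9 genes. The authors' list filtered on the irreproducible discovery rate (IDR), a measure of how alike peaks rank between replicates, held 25 peaks around sma-2, sma-3, sma-4, sma-6, sma-9, sma-10 and lon-2, and none around dbl-1 or lon-1. Of all nuclear protein-coding genes, 54.3% had a peak in the same window. Counts of 3 or more peaks were found at 6 members, all of the bound ones except lon-2, and at 18.9% of all genes. Long genes offer more sequence to a fixed window, and 8 members span 2872 to 13692 bp, dbl-1 being the shortest at 2284 bp, against a median of 2027 bp over all protein-coding genes. The 142 kb searched around the members held 0.176 peaks per kb, against 0.0872 over the nuclear genome, and this difference was not tested. With 9 genes chosen by hand, these shares describe the members and carry no test.

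**Figure D1:**
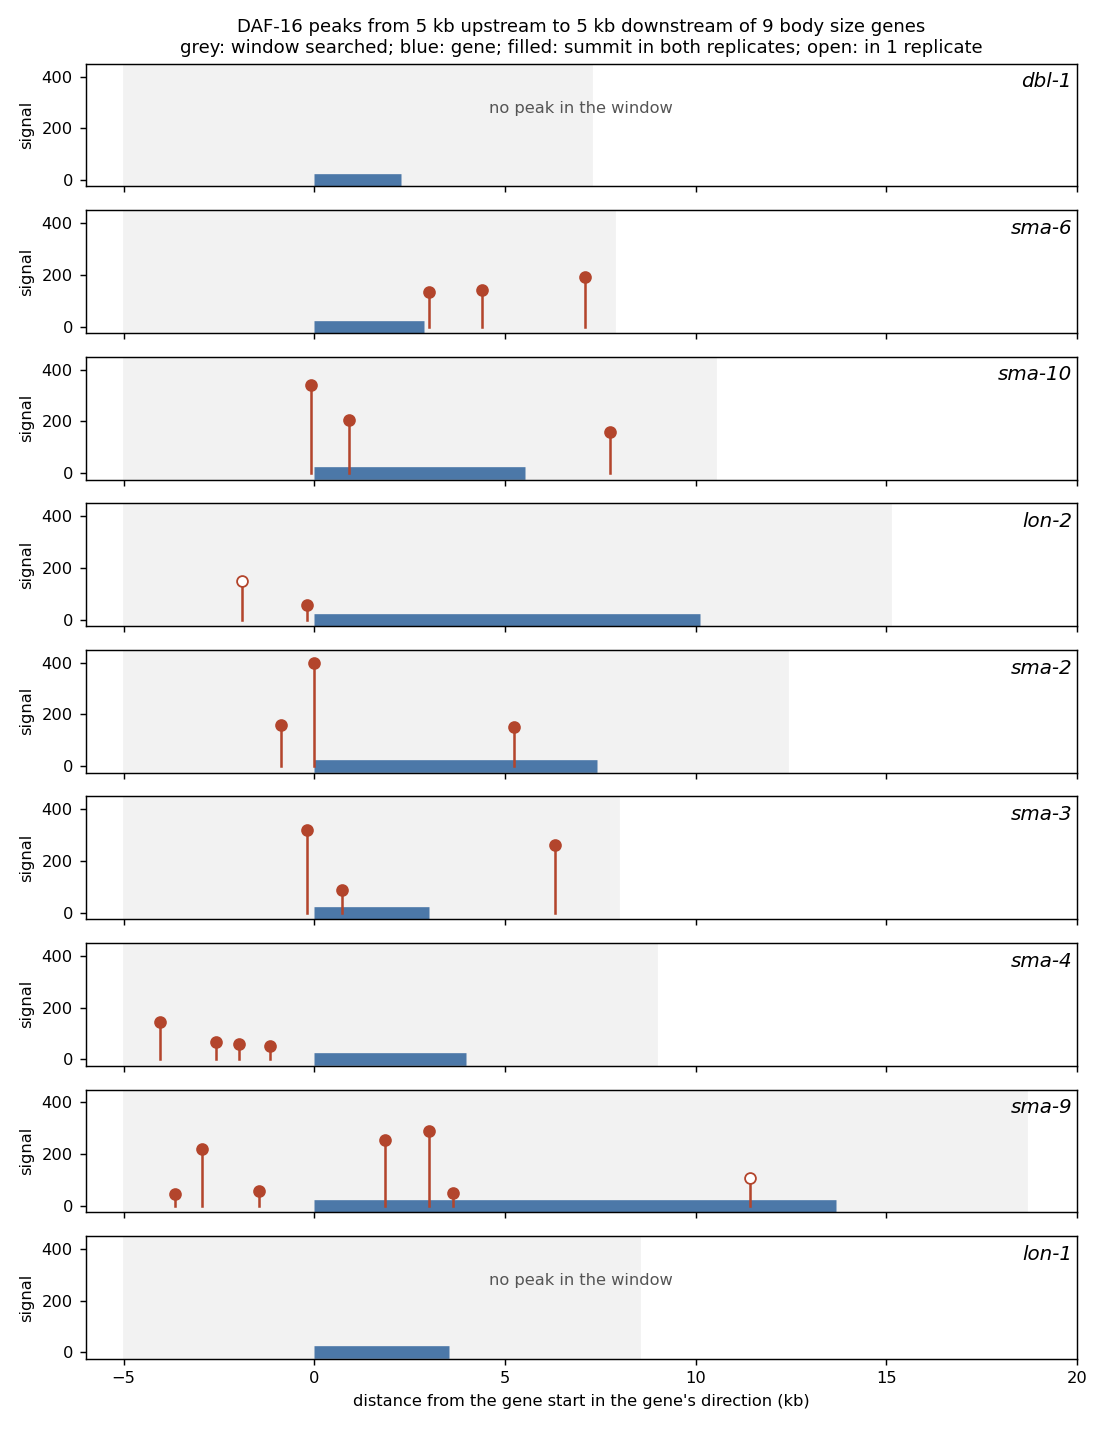
Each panel is 1 gene, with distance from the gene start in kb on the x axis, in the direction of transcription, and the authors' signal of each IDR-thresholded peak on the y axis. The blue bar is the gene, the grey band the window searched, and open circles are the 2 summits without a counterpart within 100 bp in replicate 2. The tallest peaks stand at the starts of sma-2 (398), sma-10 (340.3) and sma-3 (319.8), and the panels of dbl-1 and lon-1 are empty.

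**Figure D2:**
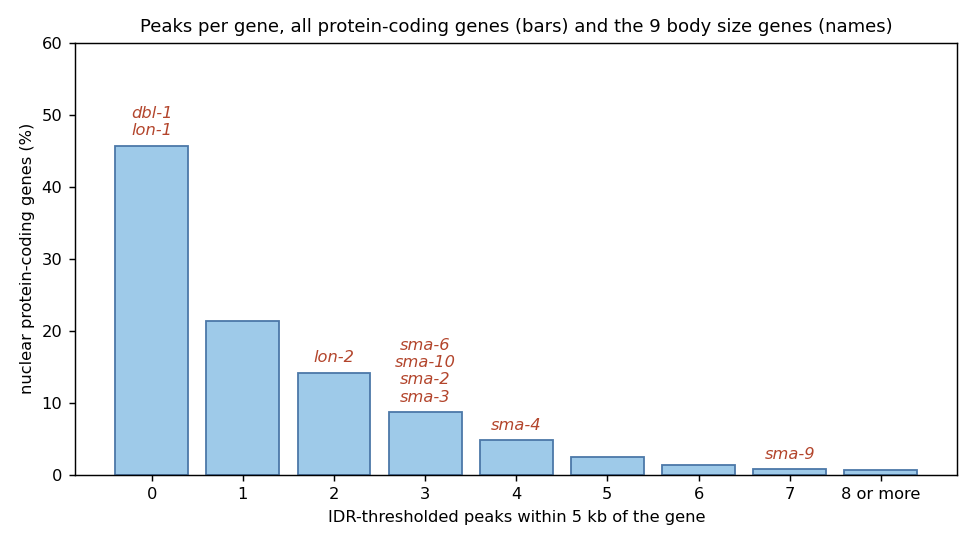
Bars give the share of 19973 nuclear protein-coding genes, in percent, by the number of IDR-thresholded peaks within 5 kb, and the names place the 9 body size genes on the same axis. The tallest bar, at 0 peaks, holds 45.7% of genes with dbl-1 and lon-1, while sma-9, with 7 peaks, stands over a bar of 0.746%.

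Signal means the authors' score of a peak, whose scale is not stated and which ranks peaks within 1 list, rank 1 being the strongest. Over the 25 peaks it ran from 46.6 to 398 with a median of 149, against a median of 107 over the 8748 nuclear IDR-thresholded peaks. The quintiles of that list, from strongest to weakest, held 7, 9, 2, 4 and 3 of the 25. The 3 strongest peaks all lay within 200 bp of the start of their own member, as did the weaker of the lon-2 peaks. A promoter peak here is one with its summit no more than 1000 bp before, or 300 bp after, any annotated transcript start of the gene. Such peaks were found at 5 members, sma-2, sma-3, sma-9, sma-10 and lon-2, and at 23.9% of all protein-coding genes. Those of sma-9, which has 6 annotated starts, lay only at starts 3799 bp or more inside the gene. That of lon-2 had a signal of 3.90 in replicate 1. Those of sma-2 and sma-10 also fell in promoter windows of other genes. Genes with more starts offer more such windows, and the shares were not adjusted for that.

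The sequence under the strongest peak within 5 kb of each bound gene is given to show which DAF-16 related elements stood there. The peaks listed for sma-6 and sma-4 lay nearest to the starts of other genes, set-4 and R12B2.7. Each runs 5′ to 3′ on the strand of the named gene, within 75 bp of the summit, in build ce11 (RefSeq assembly WBcel235), and that of sma-2 ends where an annotated UTR begins. Capitals mark the DAF-16 associated element (DAE, CTTATCA), the GATA sequence TGATAA, which overlaps every DAE, and the GAGA repeat GAGAGAG, on either strand. None of the 7 held the DAF-16 binding element (DBE, GTAAACA).
sma-2, chrIII:8749601-8749679, forward strand: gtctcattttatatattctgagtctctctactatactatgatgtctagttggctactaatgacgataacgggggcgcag
sma-10, chrIV:274249-274399, forward strand: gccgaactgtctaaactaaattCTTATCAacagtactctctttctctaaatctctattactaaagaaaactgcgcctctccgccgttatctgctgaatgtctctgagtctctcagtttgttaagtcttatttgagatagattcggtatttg
sma-3, chrIII:6864073-6864223, reverse strand: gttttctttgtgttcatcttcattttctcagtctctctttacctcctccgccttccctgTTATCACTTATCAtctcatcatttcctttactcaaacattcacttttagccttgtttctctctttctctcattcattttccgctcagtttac
sma-9, chrX:10772203-10772353, forward strand: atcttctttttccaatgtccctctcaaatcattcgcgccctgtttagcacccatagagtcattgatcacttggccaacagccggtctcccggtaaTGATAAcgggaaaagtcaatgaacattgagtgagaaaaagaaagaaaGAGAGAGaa
sma-6, chrII:6331517-6331667, forward strand: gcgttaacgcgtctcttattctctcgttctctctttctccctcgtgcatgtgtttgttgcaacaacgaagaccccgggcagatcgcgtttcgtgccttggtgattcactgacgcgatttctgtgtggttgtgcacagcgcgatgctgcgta
lon-2, chrX:4750905-4751055, reverse strand: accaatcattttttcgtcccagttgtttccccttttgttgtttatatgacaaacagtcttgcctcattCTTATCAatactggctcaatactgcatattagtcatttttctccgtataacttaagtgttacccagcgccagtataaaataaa
sma-4, chrIII:5812104-5812254, forward strand: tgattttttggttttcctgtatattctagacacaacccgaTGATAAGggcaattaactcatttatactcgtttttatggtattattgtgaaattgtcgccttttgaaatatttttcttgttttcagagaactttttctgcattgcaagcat
Those of sma-10, sma-3, lon-2 and sma-4 held a DAE, that of sma-9 a GATA site and a GAGA repeat, and those of sma-2 and sma-6 none of the elements searched.

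The ligand gene dbl-1 (WBGene00000936, chromosome V, 6758135 to 6760418, forward strand) had no peak in its window in the IDR-thresholded list. Nor was there any in the pooled list, which also holds background regions, or in the list of either replicate. Its nearest IDR-thresholded peak lay 48.7 kb away, with a signal of 116, and was its nearest in the pooled list too. Only 2.14% of protein-coding genes lay farther from a peak. In the pooled list 39.5% of protein-coding genes likewise had no peak within 5 kb. The dbl-1 window held 1 DBE, 4 DAE and 10 TGATAA matches, without a peak at any of them.

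The type I receptor gene sma-6 (WBGene00004860, chromosome II, 6324484 to 6327355, forward strand) had 3 peaks, all past its 3′ end. The first, with its summit at 6327483, 128 bp beyond the gene, scored 133 on the IDR-thresholded list, against 56.3 in replicate 1 and 78.7 in replicate 2. The second, at 6328888, had signals of 141, 66.3 and 17.4, in the same order of lists as throughout below. The third, at 6331592, had 191, 108 and 60.7 and lay 251 bp upstream of set-4, a histone H4 lysine 20 methyltransferase gene, in whose promoter window it fell. Only the first of the 3 had sma-6 as its nearest protein-coding start. Replicate 2 alone ranked the first peak above the third (2095 against 3044), while replicate 1 ranked them the other way (4138 against 2129). No IDR-thresholded peak lay upstream of sma-6 or inside it.

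The receptor-associated gene sma-10 (WBGene00020649, chromosome IV, 274420 to 279943, forward strand) was bound at its start. The summit at 274324, 96 bp upstream, had a signal of 340.3 (rank 671 of 8777), 181 in replicate 1 (rank 899) and 139 in replicate 2 (rank 632). This was the widest of the 25 peaks, at 516 bp, and it also fell in the promoter window of the chemoreceptor gene srh-282. A second summit, at 275317 in an intron, had signals of 207, 102 and 91.6. Both had a DAE, 50 bp and 29 bp from the summit. The third peak, at 282177 past the 3′ end, had 159, 86.4 and 61.2, and its nearest start, 1470 bp away, was that of the bestrophin gene best-19. Replicate 1 and replicate 2 ordered the 3 peaks alike.

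The glypican gene lon-2 (WBGene00003056, chromosome X, 4738964 to 4749083, reverse strand) had 2 peaks, both upstream, and both differed widely between the replicates. The summit at 4750980, 1897 bp upstream with a DAE 4 bp from it, had signals of 149 and, in replicate 1, of 60.3. Replicate 2 had no summit nearer to it than 1696 bp. The promoter summit at 4749277, 194 bp upstream, had 57.4, with 3.90 in replicate 1 (rank 13970 of 16146) and 39.8 in replicate 2 (rank 4684 of 21378). Each replicate thus held mainly 1 of the 2 peaks, and not the same one. The gene body of 10120 bp held none.

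The Smad genes differed in where DAF-16 stood. The receptor-regulated Smad gene sma-2 (WBGene00004856, chromosome III, 8749680 to 8757089, forward strand) carried the strongest peak of the 9 genes. Its summit at 8749676, 4 bp before the first transcript start, had a signal of 398 (rank 437), 212 in replicate 1 (rank 632) and 167 in replicate 2 (rank 382). The same position is annotated as an intron of ugtp-1, a divergent gene named for the UDP-galactose transporter family, and falls in its promoter window as well. A second summit at 8748802, with signals of 159, 111 and 43.6, lay 101 bp from a start of ugtp-1, nearer than to that of sma-2. The third, at 8754910, had 153, 54.3 and 53.1 and lay in a coding exon, 18 bp past an internal start of sma-2 that 1 transcript uses. That peak had a DAE and 2 matches to the forkhead variant GTAAATA, and it fell in the promoter window of tomm-70, a mitochondrial import receptor gene.

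The other receptor-regulated Smad gene, sma-3 (WBGene00004857, chromosome III, 6860974 to 6863968, reverse strand), also had its strongest peak at its start. The summit at 6864148, 180 bp upstream, had a signal of 319.8 (rank 771), 183 in replicate 1 and 154 in replicate 2. The DAE there lay 7 bp from the summit, with a second TTATCA directly before it on the sma-3 strand. An intronic summit at 6863231 had 88.2, 48.2 and 28.8. The third, at 6857649, had 264, 102 and 71.5 and lay past the 3′ end, 840 bp upstream of zak-1, a kinase gene related to mammalian ZAK. The peak at the start of sma-3 stood above the other 2 in each of the 3 lists.

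The co-Smad gene sma-4 (WBGene00004858, chromosome III, 5816232 to 5820204, forward strand) had 4 peaks upstream and none in its promoter window or body. Their summits lay 4053, 2575, 1971 and 1166 bp before the gene, with signals of 146, 65.3, 57.4 and 53.0. Every one had the start of R12B2.7 as its nearest, and the last lay in a 5′ UTR of that gene. The farthest, at 5812179, was the strongest in both replicates, with 74.8 in replicate 1 and 48.5 in replicate 2. The nearest of the 4, at 5815066, had 52.0 in replicate 1 (rank 4394) and 3.97 in replicate 2 (rank 17500). The one at 5814261 had 42.4 (rank 5045) and 6.50 (rank 14159 of 21378), so that both stood much lower in replicate 2. Replicate 2's own 8777 strongest peaks held 2 of the 4.

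**Figure D3:**
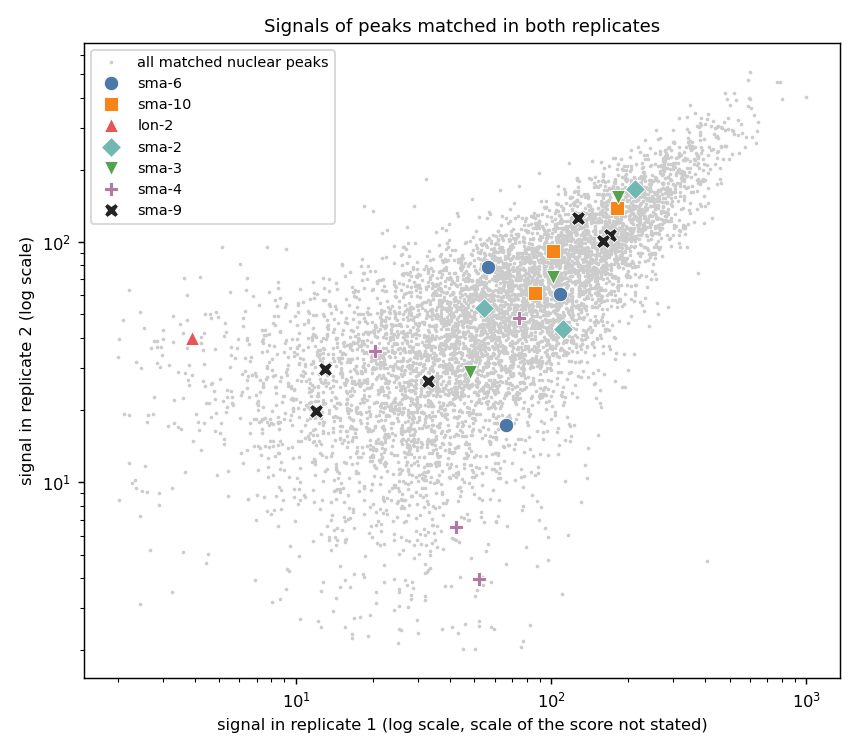
The signal of each nuclear IDR-thresholded peak in replicate 1 (x axis) is set against that in replicate 2 (y axis), both on log scales, for the 6758 peaks with a summit within 100 bp in both. Grey points are all such peaks and coloured symbols the 23 at the body size genes. The starts of sma-2, sma-10 and sma-3 stand high in both, 2 sma-4 peaks fall low in replicate 2, and the lon-2 promoter peak stands at 3.90 in replicate 1.

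The cofactor gene sma-9 (WBGene00004862, chromosome X, 10769282 to 10782973, forward strand) was the longest member and had the most peaks, 7. Of these, 3 lay upstream and 4 in introns, and 6 had no other protein-coding gene within 5 kb. The strongest, at 10772278, had a signal of 288, 159.7 in replicate 1 and 101 in replicate 2. It lay 2996 bp inside the gene and 803 bp before the next of its starts, which stand 3799 and 3809 bp in and of which the second opens 10 transcripts. The summit at 10771145, in an intron, had 253, 169.7 and 107, and that at 10766330, 2952 bp upstream, had 221, 127 and 126. These 3 were the strongest of sma-9 in each replicate, and their order differed between the replicates.

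The remaining sma-9 peaks were weaker. The summit at 10780718, deep in the gene, had 109 and ranked 4302, or 4039 in replicate 1, and the nearest summit of replicate 2 lay 146 bp away with 20.9. It had a DAE 8 bp from the summit. The summits at 10767833 (56.4), 10772919 (48.7) and 10765622 (46.6) had signals of at most 33.0 in replicate 1 and 29.6 in replicate 2. Of these, the one at 10772919 lay 162 bp before the internal starts, in the promoter window.

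The gene lon-1 (WBGene00003055, chromosome III, 5474476 to 5478005, forward strand) resembled dbl-1 in having no peak in the window in any of the 4 lists. Its nearest IDR-thresholded peak was 20.5 kb away, with a signal of 88.3, and 14.1% of protein-coding genes lay farther from a peak. The window held 1 DBE, 2 DAE and 18 TGATAA matches. The members without a peak were thus the ligand gene and a gene acting below the Smads, where 45.7% of all protein-coding genes had none. The other members each had at least 2 peaks within 5 kb. Those of sma-4, and all but 1 of sma-6, lay nearest to other genes' starts.

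Of the 25 peaks, 23 had counterparts no more than 100 bp away in both replicates' lists, against 77.3% of the nuclear IDR-thresholded peaks as a whole. The other 2, at lon-2 and sma-9, lacked one in replicate 2. The 48 replicate summits lay at a median of 8 bp from the IDR-thresholded one, and at most 87 bp. The lists of the replicates hold background regions, so a match can be weak. When the matched summit also had to be among the 8777 strongest of its replicate, 18 of the 25 passed, and 64.4% of all. The weaker 5 were at lon-2, sma-4 and sma-9. No peak of the 25 was a repeat of another's interval.

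Not every peak near a body size gene was nearest to it. The nearest protein-coding start was that of the member for 16 of the 25 and of another gene for 9, namely set-4, best-19, ugtp-1, zak-1 and R12B2.7. Over all 25483 pairs of a protein-coding gene and a peak within 5 kb of it, the gene had the nearest start in 33.5%. Of the members' peaks, 13 lay upstream of the gene (48.3% of all pairs), 7 inside it (13.9%) and 5 past its end (37.9%). The longest member, sma-9, had 4 of the 7 inside. All members were longer than the median gene, and these shares were not adjusted for length. The promoter window of another protein-coding gene held 8 of the 25, against 48.3% over all pairs. A gene with several neighbours shares its peaks with them, so the pairs are not independent.

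By annotation, 15 summits were intergenic (56.2% of all nuclear IDR-thresholded summits), 8 in introns (23.1%), 1 in a coding exon (5.98%) and 1 in a 5′ UTR (4.77%). A promoter window of any protein-coding gene held 12 of the 25, against 53.6% of all. These differences were not tested, nor was which gene a shared peak acts on.

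TGATAA, alone or within a DAE, was the most frequent element at the 25 summits. A DBE within 75 bp was found at 0 of 25, where 8.94% of all nuclear IDR-thresholded peaks had one. The DAE stood at 9 of 25, spread over 6 genes, where 21.8% of all peaks had it, and TGATAA at 15, where 42.5% had it. Every DAE contains a TGATAA on the other strand, and 6 of the 15 had a TGATAA and no DAE. The DAE centres lay 4 to 71 bp from the summits. sma-6 was the bound gene without a DAE at a peak, and 2 of its 3 peaks had a TGATAA. These shares were not tested, and a match of letters is no evidence of a site in use.

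Other motifs were few. The forkhead variant GTAAATA stood at 2 peaks, both of sma-2 (5.14% of all peaks), and the E-box CACGTG at 2, of sma-4 and sma-9 (6.02%). The repeat GAGAGAG stood at 3, of sma-3 and sma-9 (10.3%). The reversed DBE, searched as a control, stood at 1 (4.07%) and the reversed DAE at 0 (2.29%). At 7 of the 25 peaks none of the elements other than the controls was found, among them the sma-2 peak with a signal of 398. The share of all nuclear IDR-thresholded peaks with none of them was not counted, so whether 7 of 25 is many or few is not known. Over the whole windows of the 9 genes there were 17 DBE matches, of which 0 lay within 75 bp of a peak, and 27 DAE matches, of which 9 did. Across the nuclear genome 6.72% of DBE and 11.7% of DAE matches lay that close to an IDR-thresholded summit. The members' windows held more peaks per kb, 0.176 against 0.0872 over the genome. These shares were not adjusted for that and were not tested.

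**Figure D4:**
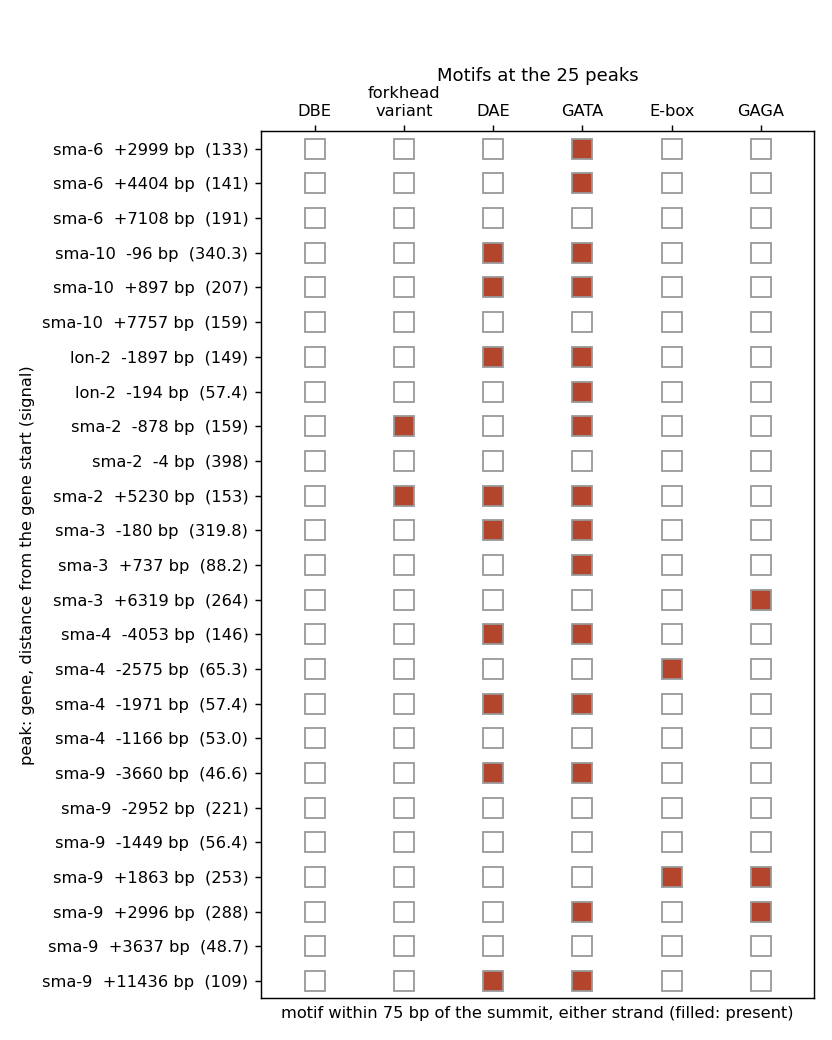
Rows are the 25 peaks, named by gene, distance from the gene start in bp and signal, and columns are 6 motifs, each sought on either strand up to 75 bp from the summit. A filled square marks a match. The DBE column is empty, the GATA column holds 15 filled squares, and each of the 9 DAE squares has a GATA square beside it because the elements overlap.

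Among other genes of the pathway, 10 of 13 listed modulators and shared components had a peak within 5 kb, read against the same 54.3%, and 4 of 13 had a promoter peak, where 23.9% of all genes had one. The strongest were a peak of 305 past the 3′ end of the tetraspanin gene tsp-14, one of 291 past that of drag-1, which encodes a repulsive guidance molecule homologue and BMP co-receptor, and one of 277 just inside the tetraspanin gene tsp-21. The first had add-1 and the second Y71G12B.31 as its nearest start. The gene of the type II receptor, daf-4, shared with the dauer pathway, had 3 upstream peaks of 86.2, 64.9 and 38.5 and no promoter peak. The peak of 64.9 had no counterpart in replicate 1. sup-17, crm-1 and bli-4 had no peak. Over the 31 peaks of this list, a DBE stood at 2 and a DAE at 7, where 8.94% and 21.8% of all peaks had them.

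Of 3 collagen genes linked to body size, rol-6 and col-41 had IDR-thresholded peaks and lon-3 none, where 54.3% of all genes had one. None had a promoter peak, where 23.9% of all genes did. The lon-3 window held 5 summits in the pooled list and 5 in that of replicate 2, but 0 in that of replicate 1. The strongest near rol-6, with signals of 728 and 346, and near col-41, with 193, lay past the 3′ ends and had other genes' starts as their nearest, idpb-4 and ucr-2.2. The dauer branch of TGF-beta signalling, which uses DAF-4 with the type I receptor DAF-1, had peaks at 5 of 6 genes, its ligand gene daf-7 being the exception, read against the same 54.3%. The Smad gene daf-3 had the strongest, 593 at an internal start with a DBE and a DAE, followed by peaks of 400.0 and 302 in introns of daf-5, a Ski-related cofactor gene. The type I receptor gene daf-1 had 1 upstream peak of 99.1, with a DBE. A DBE stood at 4 of the 33 peaks of that branch, where 8.94% of all peaks had one. At the body size genes it stood at 0 of 25. A DAE stood at 8 and a TGATAA at 12 of the 33, against 9 and 15 of the 25, where 21.8% and 42.5% of all peaks had them. These differences were not tested.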

How the data were processed

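The authors' deposited peak lists on build ce11 were used: 8777 IDR-thresholded peaks, the pooled list (22466) and those of replicate 1 (16146) and replicate 2 (21378), background regions included. Their signal, column 7, was deposited by the authors without a stated scale. Ranks were taken within each list. Signals of different lists are shown side by side, and whether their scales match is not known. No source used here names the aligner, peak caller or IDR threshold, and a control is among the inputs of the lists, per the notes the submitters deposited with each sample. Read depth is unknown, so no interval is given. How the cultures of the replicates were separated is not stated. The ce10 lists and signal tracks were not used here.

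Chromosome lengths of the RefSeq sequence were checked against the largest peak ends. Summits (column 2 plus column 10, given 1-based) were joined to Ensembl release 115 genes. A replicate's counterpart was its nearest summit within 100 bp. The members, gene lists and motifs were chosen with earlier results of these data known. Genes named are all members, the 3 strongest peaks and the unbound genes of each list, and the genes nearest to members' peaks. Named after their values were seen were daf-1, daf-4, srh-282, tomm-70 and the neighbours of the lists' peaks. With 1 group no test was made. Shares over all 19973 genes, 8748 peaks or 25483 pairs of gene and peak stand beside the main counts. Window and motif searches were tested on simulated data. Alternatives were other windows, peak lists, match rules, motif windows and start definitions. Python 3.11.15, numpy 2.4.6 and matplotlib 3.10.9 were used.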

Additional observations from a re-analysis of the deposited data

How the results depend on the processing

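Counts were recomputed with other windows, peak lists, match rules, motif windows and start definitions, and 41 of 46 such values were within 1.5 times the reported one. The 7 bound members numbered 7 in every alternative except the window of 1 kb, which left 6, and dbl-1 and lon-1 had no peak in any list. The 25 peaks became 57 in the pooled list and 13 with the window of 1 kb, and ranged from 24 without replicate 1 to 27 without replicate 2. With the window of 1 kb, 5 of the 13 modulators and shared genes had a peak in place of 10. The share of all protein-coding genes with a peak in that smaller window was not counted, for these genes or for the members. The 23 matched of 25 peaks became 15 of 17 in the stronger 50% of peaks, which leaves fewer peaks to match. The matched peaks numbered 18 of 25 under the match among each replicate's strongest, an alternative chosen after seeing the data. A DBE was found at 1 peak, of sma-9 at 10780718, within 150 bp of the summit, in place of 0. Members with a promoter peak numbered 4 to 6. Replicate 1's own strongest peaks put sma-6 among them and left out lon-2. Of 45 counts per gene, 14 moved beyond 1.5 times, 7 up and 7 down. sma-4 fell from 4 peaks to 2 without replicate 1, lon-2 from 2 to 1 without either replicate, and sma-10 rose from 3 to 6 without replicate 2. The causes were not tested. Peaks of low signal and unknown depth limit what the absence of a peak shows. No paired analysis was possible because the samples form 1 group.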

Other observations

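The pooled list, background regions included, has 22466 peaks in all, against 8777 in the IDR-thresholded list. It held more summits around most bound members, with 57 over all members against 25. It had 15 within 5 kb of sma-9, 11 of sma-10, 10 of sma-2, 7 of sma-4 and 6 each of sma-3 and sma-6. At lon-2 it held 2, the same number as the IDR-thresholded list. The list of replicate 1 had 10 summits at sma-10 and that of replicate 2 had 7, while at sma-9 they had 11 and 14. The pooled list put a summit in the promoter window of sma-4, which the IDR-thresholded list did not. TGATAA matches numbered 161 over the windows of the 9 genes, of which 16 lay within 75 bp of a peak, 9.94%, against 5.02% of such matches over the nuclear genome. These windows also held more IDR-thresholded peaks per kb, 0.176 against 0.0872 over the nuclear genome, and the shares were not adjusted for this. Neighbouring matches share peaks, and the difference between the shares was not tested.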
